A study of Mus musculus with 16 samples.

Results

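The Cyp2c cytochromes P450 were followed across tumor and nontumor tissue of mouse livers on 2 diets. The 10 members were taken by their symbols from a table of 20601 genes, and 9 symbols were present as written. The listed symbol Cyp2c44 is a RefSeq synonym of Cyp2c23, and the row Cyp2c23 was used for it. Of the 10 members, 9 passed the filter on low values and were tested. Cyp2c39 did not pass. The table also holds 5 Cyp2c rows outside this set, namely Cyp2c40, Cyp2c55, Cyp2c67 and the pseudogenes Cyp2c52-ps and Cyp2c53-ps.

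All 4 groups came from mice whose livers had been given plasmids for human N-Ras (19 μg) and human c-Myc (1 μg) with a plasmid for Sleeping Beauty transposase (2 μg), by hydrodynamic delivery. Such delivery mainly reaches hepatocytes, and nontumor tissue was taken from the same livers, so no group is liver without the plasmids. After 4 weeks the mice received either a ketogenic diet (KD; 0.1% carbohydrate, 89.5% fat and 10.4% protein) or a normal diet (ND) for the next 4 weeks, and tissue was taken at week 8. Polyadenylated RNA was sequenced in 16 libraries, 4 each of ND nontumor, ND tumor, KD nontumor and KD tumor. The labels give neither strain, sex nor age. The tissue came from 8 mice, without a label for which libraries share one, so the p-values measure the spread between these libraries.

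Cyp2c enzymes sit in the endoplasmic reticulum of hepatocytes and oxidize fatty acids, steroids, retinoids and drugs, using electrons passed on by P450 oxidoreductase. Several of them turn arachidonic acid into epoxides, lipid mediators that soluble epoxide hydrolase then breaks down. Cyp2c70 stands apart in function, as it converts chenodeoxycholic acid into the muricholic acids that are typical of mouse bile. Transcription of Cyp2c genes in liver depends on the nuclear receptors HNF4 alpha, CAR and PXR, and many P450 genes are most active in hepatocytes around the central vein, where Wnt signaling is strong.

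In the GENCODE annotation of GRCm38, all members lie on chromosome 19. Of the 10, 9 form a cluster of 918 kb from 39269405 to 40187333, and Cyp2c23 lies 3.82 Mb beyond it, from 44005022 to 44029208 on the minus strand. Within the cluster, Cyp2c37 (39992424 to 40012243), Cyp2c54 (40037940 to 40073827) and Cyp2c50 (40089688 to 40113950) are neighbors, followed by Cyp2c70 (40153353 to 40187333). Cyp2c68 (39688834 to 39741054) and Cyp2c69 (39842814 to 39886799) flank Cyp2c40.

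The promoter sequences of 5 members are shown because the values below separate them: Cyp2c37 and Cyp2c50 were at or below 12.6 TPM in every ND tumor, Cyp2c68 fell 3.22-fold there, Cyp2c69 was low outside ND nontumor liver, and Cyp2c70 did not pass the test in any comparison. Each is the 250 bases before a start site, 5′ to 3′ on the gene's strand, from RefSeq on GRCm38.p6, with capitals marking the letters CAAAGTC, the core of an element that HNF4 alpha is known to bind.
Cyp2c37, chr19:39992174-39992423, plus strand: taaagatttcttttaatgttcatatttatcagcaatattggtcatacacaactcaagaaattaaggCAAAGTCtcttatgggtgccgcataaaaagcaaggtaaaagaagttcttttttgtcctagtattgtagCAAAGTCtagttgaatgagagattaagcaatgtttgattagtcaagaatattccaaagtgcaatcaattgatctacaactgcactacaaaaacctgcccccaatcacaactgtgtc
Cyp2c50, chr19:40089429-40089678, plus strand: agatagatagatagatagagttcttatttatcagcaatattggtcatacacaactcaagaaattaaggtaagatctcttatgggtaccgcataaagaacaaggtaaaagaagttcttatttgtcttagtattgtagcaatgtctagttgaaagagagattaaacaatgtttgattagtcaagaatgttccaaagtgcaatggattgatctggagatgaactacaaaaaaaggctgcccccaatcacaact
Cyp2c68, chr19:39741102-39741351, minus strand: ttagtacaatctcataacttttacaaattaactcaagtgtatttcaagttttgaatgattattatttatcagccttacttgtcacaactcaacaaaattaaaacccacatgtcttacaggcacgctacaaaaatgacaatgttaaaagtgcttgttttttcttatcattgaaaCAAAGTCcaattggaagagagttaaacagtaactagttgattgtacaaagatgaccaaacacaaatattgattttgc
Cyp2c69, chr19:39886770-39887019, minus strand: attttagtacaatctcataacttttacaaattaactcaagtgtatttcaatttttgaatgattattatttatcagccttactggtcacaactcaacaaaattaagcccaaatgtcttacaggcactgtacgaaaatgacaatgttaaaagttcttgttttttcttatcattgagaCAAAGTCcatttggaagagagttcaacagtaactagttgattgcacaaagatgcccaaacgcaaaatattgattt
Cyp2c70, chr19:40187287-40187536, minus strand: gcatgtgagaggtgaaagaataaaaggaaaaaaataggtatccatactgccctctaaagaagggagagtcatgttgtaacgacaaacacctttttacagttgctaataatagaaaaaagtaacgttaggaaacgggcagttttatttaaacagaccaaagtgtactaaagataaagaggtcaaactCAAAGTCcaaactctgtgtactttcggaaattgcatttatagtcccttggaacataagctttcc

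RefSeq promoters matched 8 of the 10 members. Searched on both strands over these 250 bases, CAAAGTC was found in 6 of the 8 (Cyp2c29, Cyp2c37, Cyp2c39, Cyp2c68, Cyp2c69 and Cyp2c70) and in 3.84% of 32851 promoters of that length. The longer form CAAAGTCCA, which contains the shorter one, was found in Cyp2c68, Cyp2c69 and Cyp2c70 and in 0.384% of all promoters. The match began 77 bases before the RefSeq start site in Cyp2c68, 75 in Cyp2c69 and 64 in Cyp2c70. The GENCODE starts of these genes lie elsewhere, so these distances depend on the annotation. Cyp2c37 had 2 matches of the core and Cyp2c50 none, although their 2 promoters were 84.3% identical. Those of Cyp2c68 and Cyp2c69 were 91.3% identical, and that of Cyp2c70 was at most 45.1% identical to any other. The members with the motif thus include both the one that did not pass any test and ones that fell, and a match in sequence is a description only.

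Expression is given as TPM, a share of transcripts that accounts for gene length, so levels of different genes can be compared. Levels below are rescaled TPM, that is, deposited TPM divided by a library factor that aligns the median gene, and fold changes are log2 differences of (rescaled TPM + 1) ± SE from limma with Benjamini-Hochberg adjusted p-values over all 13432 genes tested (n = 4 per group). The added 1 understates changes of low genes. Ratios are ratios of group means. In each library the listed genes made up between 49.96% and 88.4% of the TPM total except in ND nontumor 4, where they made up 7.38% and the factor was 0.126. The depth over the listed genes, recovered from the steps between TPM values, was 3518966 to 14074042 reads, lowest in ND nontumor 4. On the deposited scale the median log2 fold change over all tested genes was 0.42 in tumor against nontumor on ND, -0.26 on KD, 0.69 in KD against ND nontumor liver and -0.67 in the difference between the diet effects. In bulk tissue, fewer hepatocytes and less RNA per hepatocyte cannot be told apart.

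Nontumor liver on the normal diet had the highest mean Cyp2c sum of the 4 groups. The sum of the 10 members was 2169, 3571, 4118 and 3717 TPM in the ND nontumor libraries, or 3394 ± 848 (SD). Cyp2c37 (1061 ± 303 TPM) and Cyp2c54 (923 ± 308 TPM), both arachidonic acid oxidases, led the order and overlapped each other. Cyp2c50 (515 ± 158 TPM), another enzyme of that subgroup, and Cyp2c23 (383 ± 87.9 TPM), an epoxygenase, came next, and their ranges overlapped as well. Cyp2c68 (247 ± 57.0 TPM) overlapped Cyp2c23 but not Cyp2c70 (164 ± 18.5 TPM), the highest library of which was below the lowest for Cyp2c68. Cyp2c38 (37.5 ± 9.84 TPM), Cyp2c29 (36.2 ± 12.5 TPM) and Cyp2c69 (25.4 ± 11.5 TPM) formed a lower tier with overlapping ranges. Cyp2c39, known as a retinoic acid hydroxylase, was at most 1.13 TPM in any of the 16 libraries and was listed at 0 in all 4 ND tumors, 2 ND nontumor and 2 KD tumor libraries. Cyp2c38 (44.8 TPM), Cyp2c39 (0.509 TPM) and Cyp2c70 (184 TPM) had their highest means in KD nontumor liver.

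**Figure D1:**
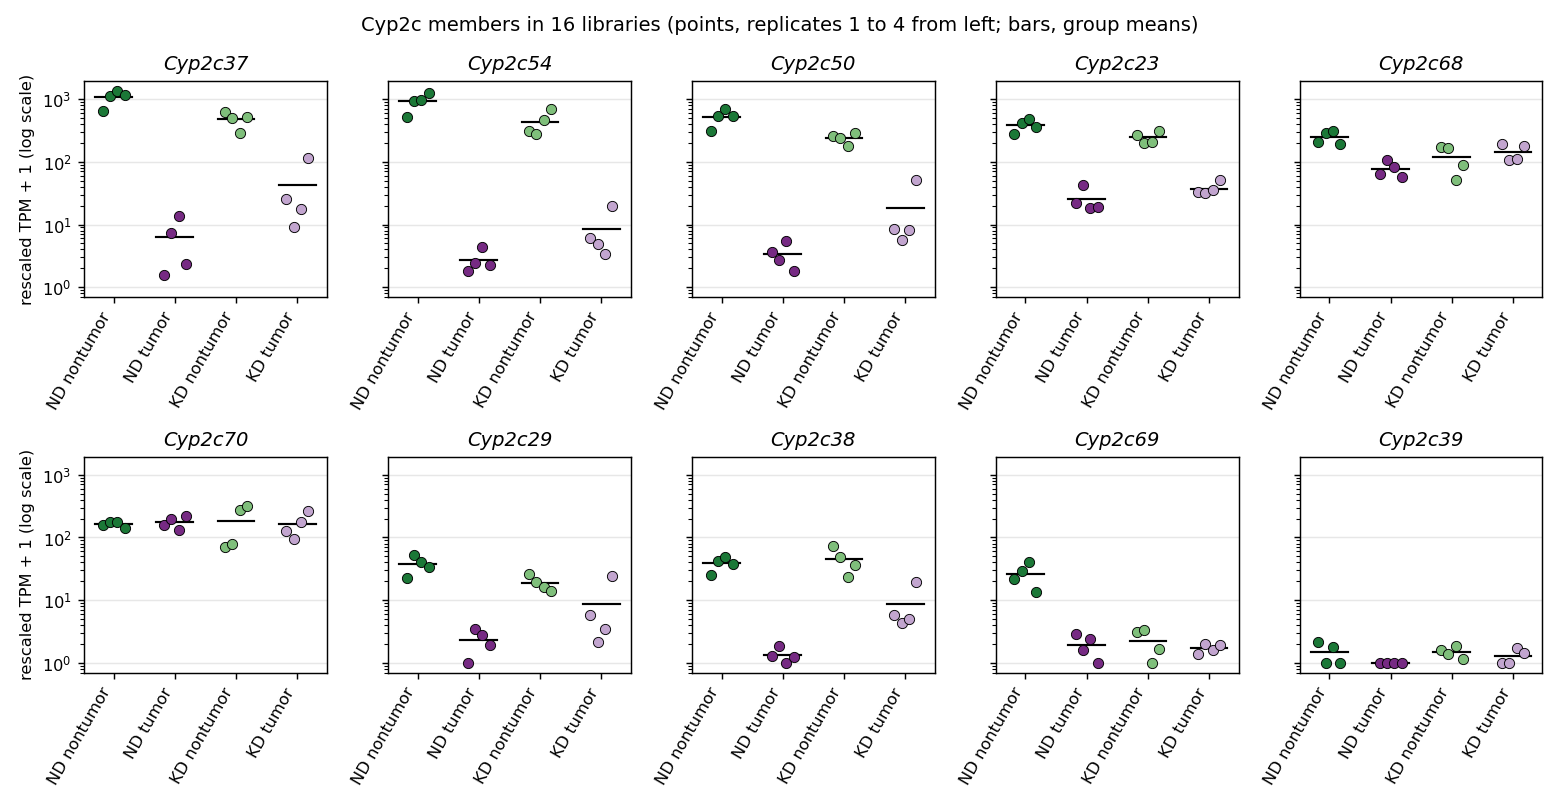
Rescaled TPM plus 1 on a log scale for each of the 10 members; each point is a library, in the order of replicates 1 to 4, and bars are group means. Cyp2c37, Cyp2c54 and Cyp2c50 drop from at least 180 TPM in every nontumor library to 12.6 TPM or less in every ND tumor, while Cyp2c70 stays between 69.3 and 317 TPM in all 16 libraries.

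In tumors on the normal diet, 8 of the 9 tested members fell, where 14.2% of all tested genes did. In each of these 8 the highest tumor library was below the lowest nontumor library, which held for 13.7% of tested genes. The median log2 fold change of the 9 was -4.10, beside -0.0024 over all tested genes. The sum went down to 250, 358, 254 and 297 TPM (289.9 ± 49.9), 11.7-fold below ND nontumor liver.

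The 3 neighbors that led the order in nontumor liver dropped the furthest. Cyp2c54 was 516, 935, 978 and 1264 TPM in ND nontumor liver and 0.842, 1.46, 3.45 and 1.23 TPM in ND tumor. It fell 528-fold (log2 fold change -8.41 ± 0.46, adjusted p = 1.16e-08), and the groups were far from overlapping. Cyp2c50 was 307, 529, 692 and 534 TPM in nontumor liver and 2.65, 1.72, 4.48 and 0.802 TPM in tumor, a 214-fold fall (-7.30 ± 0.52, adjusted p = 8.31e-08). Cyp2c37 was 634, 1108, 1349 and 1152 TPM in nontumor liver. In tumors it was 0.589, 6.39, 12.6 and 1.36 TPM, a 202-fold fall (-7.86 ± 0.68, adjusted p = 7.57e-07) with a wide spread between tumors, and 382-fold without ND tumor 3.

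Members that were lower in nontumor liver fell as well. Cyp2c38 was 24.5, 40.4, 48.1 and 37.1 TPM in ND nontumor liver and 0.299, 0.840, 0 and 0.240 TPM in ND tumor, 109-fold lower (-4.84 ± 0.42, adjusted p = 7.3e-07). The tumor values of Cyp2c38 rest on 4, 12, 0 and 5 reads, and without ND tumor 2 the ratio was 209-fold. Cyp2c29, a well-known CAR target, went from 36.2 ± 12.5 to 1.29 ± 1.07 TPM (-4.10 ± 0.56, adjusted p = 5.52e-05), and Cyp2c69 from 25.4 ± 11.5 to 0.964 ± 0.836 TPM (-3.75 ± 0.41, adjusted p = 6.72e-06). The epoxygenase Cyp2c23, which lies outside the cluster, fell 15.5-fold, from 278, 418, 483 and 355 TPM to 20.8, 42.4, 17.4 and 18.2 TPM (-3.97 ± 0.27, adjusted p = 5.99e-08).

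Cyp2c68 and Cyp2c70 kept substantial levels in ND tumors. Cyp2c68 was 207, 281, 309 and 191 TPM in ND nontumor liver and 64.0, 106, 80.3 and 56.8 TPM in ND tumor. It fell 3.22-fold (-1.69 ± 0.35, adjusted p = 0.00182), although on the deposited scale this call was lost (-1.03, adjusted p = 0.388), where 7 members were called lower. Cyp2c70 was 160, 179, 178 and 140 TPM in nontumor liver and 159, 196, 133 and 218 TPM in tumor, with overlapping groups. Its log2 fold change was 0.09 ± 0.43 (adjusted p = 0.905), with a 95% interval from -0.83 to 1.00, and it reversed to -0.12 on the deposited scale without ND nontumor 4.

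**Figure D2:**
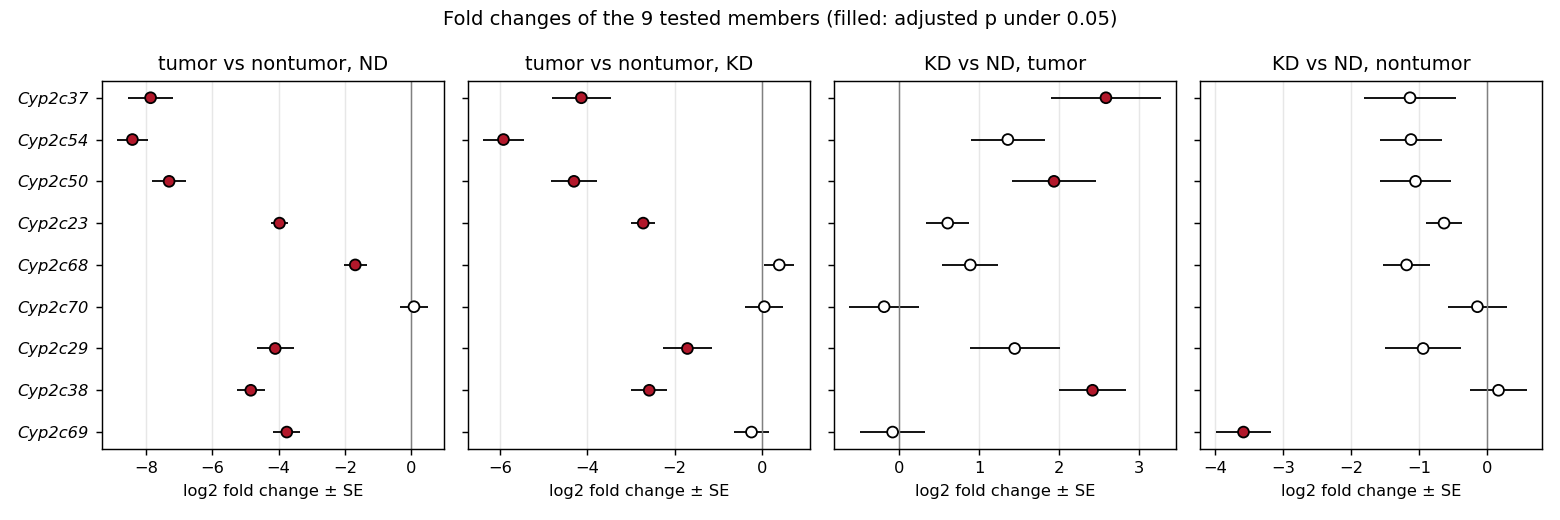
Log2 fold change ± SE of the 9 tested members in 4 comparisons, with filled points for adjusted p under 0.05; the horizontal scales differ between panels. On ND every member but Cyp2c70 is filled on the left, from -1.69 (Cyp2c68) to -8.41 (Cyp2c54).

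On the ketogenic diet, tumors also had less Cyp2c RNA than nontumor liver. Of the 9 tested members 6 fell, where 16.2% of all tested genes did, and in 5 of the 6 the groups did not overlap, which held for 17.3% of tested genes. The median over the 9 was -2.58, beside 0.012 over all tested genes. The sum was 1792, 1532, 1484 and 2250 TPM in KD nontumor liver and 395, 249, 352 and 718 TPM in KD tumor, a 4.12-fold difference of means.

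Cyp2c54 again dropped the furthest, from 307, 275, 454 and 686 TPM to 5.05, 3.84, 2.36 and 18.9 TPM, 57.1-fold (-5.92 ± 0.46, adjusted p = 4.25e-07). Cyp2c50 was 255, 242, 180 and 285 TPM in KD nontumor liver and 7.54, 4.76, 7.22 and 50.8 TPM in KD tumor, 13.7-fold lower (-4.31 ± 0.52, adjusted p = 2.35e-05). Cyp2c37 was 621, 502, 287 and 517 TPM in nontumor liver and 24.4, 8.30, 16.6 and 116 TPM in tumor, 11.7-fold lower (-4.14 ± 0.68, adjusted p = 0.000331). In all 3 the highest tumor library was KD tumor 4, which was also the highest KD tumor for Cyp2c23, Cyp2c29, Cyp2c38 and Cyp2c70. Without KD tumor 4 the falls were 115-fold for Cyp2c54 (-6.45), 37.0-fold for Cyp2c50 (-5.01) and 29.3-fold for Cyp2c37 (-4.85), and all 3 passed. Cyp2c23 fell 6.72-fold (-2.72 ± 0.27, adjusted p = 4.11e-06) and Cyp2c38 5.92-fold (-2.58 ± 0.42, adjusted p = 0.000283), which was 11.1-fold without KD tumor 4. Cyp2c29 was 24.9, 18.8, 15.2 and 13.0 TPM in KD nontumor liver and 4.73, 1.15, 2.45 and 22.9 TPM in KD tumor, and the groups overlapped through KD tumor 4. Its fall (-1.71 ± 0.56, adjusted p = 0.0278) was lost without KD nontumor 1 (adjusted p = 0.0632) or without KD tumor 1, 2 or 3 (0.0525, 0.102 and 0.0846). It was also lost with a pseudocount of 0.1 (adjusted p = 0.092), with no filter on low values (0.0574) and in a fit to only the 2 groups compared (0.063).

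The 3 members that did not pass were Cyp2c68, Cyp2c69 and Cyp2c70. Cyp2c68 was 173, 163, 49.7 and 88.9 TPM in KD nontumor liver and 189, 104, 109 and 176 TPM in KD tumor (0.40 ± 0.35, adjusted p = 0.405, 95% interval -0.34 to 1.13). Cyp2c69 was at most 2.38 TPM in any library of either KD group. Cyp2c70 was 69.3, 78.3, 271 and 317 TPM in KD nontumor liver and 127, 92.6, 175 and 264 TPM in KD tumor (0.05 ± 0.43, adjusted p = 0.937, 95% interval -0.86 to 0.97). The sign of that value was negative on the deposited scale (-0.28) and with the listed genes scaled to a common sum (-0.28).

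Between tumors of the 2 diets, 3 of the 9 members were higher on KD, where 7.21% of all tested genes were, and 0 were lower, where 8.49% were. In 2 of the 3, Cyp2c38 and Cyp2c50, the groups did not overlap, which held for 12.3% of tested genes in that direction. The median over the 9 was 1.36, beside 0.032 over all tested genes. Cyp2c38 rose from a mean of 0.345 ± 0.355 TPM to 4.76, 3.31, 4.04 and 18.2 TPM, 22.0-fold (2.42 ± 0.42, adjusted p = 0.00255). Cyp2c50 rose 7.29-fold (1.94 ± 0.52, adjusted p = 0.0216), and Cyp2c37 rose 7.87-fold (2.58 ± 0.68, adjusted p = 0.02). The 2 groups overlapped for Cyp2c37, since KD tumor 2 (8.30 TPM) was below ND tumor 3 (12.6 TPM).

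All 3 stayed below nontumor liver in absolute level: the KD tumor means were 7.57 TPM for Cyp2c38, 17.6 TPM for Cyp2c50 and 41.3 TPM for Cyp2c37, against 44.8, 240.5 and 481.8 TPM in KD nontumor liver. KD tumor 4 raised these ratios, which without it were 11.7-fold for Cyp2c38 (1.93, adjusted p = 0.00532), 2.70-fold for Cyp2c50 (1.23, adjusted p = 0.0353) and 3.14-fold for Cyp2c37 (1.87, adjusted p = 0.0596). Without ND tumor 2 the ratio of Cyp2c38 was 42.1-fold, and without ND tumor 3 that of Cyp2c37 was 14.9-fold. Cyp2c37 lost its call without KD tumor 4, without ND tumor 1 (0.0691) or without ND tumor 4 (0.0502). Cyp2c50 lost it without ND tumor 4 (1.66, adjusted p = 0.0553), which left Cyp2c38 as the sole member called. In a fit to only the 2 tumor groups, Cyp2c37 (adjusted p = 0.0517) and Cyp2c50 (0.0535) did not pass. On the deposited scale Cyp2c38 was the only one called (2.46, adjusted p = 0.00827). Cyp2c54 (1.36 ± 0.46, adjusted p = 0.0555), Cyp2c29 (1.45 ± 0.56, adjusted p = 0.0868) and Cyp2c68 (0.89 ± 0.35, adjusted p = 0.0897) had positive values that did not pass. Values for Cyp2c23 (0.61), Cyp2c69 (-0.08) and Cyp2c70 (-0.18) were closer to 0. The sums overlapped between the diets, with a ratio of means of 1.48.

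In nontumor liver, 1 member changed between the diets. Cyp2c69 was 20.9, 28.6, 39.6 and 12.6 TPM on ND and 2.09, 2.38, 0 and 0.651 TPM on KD. The groups did not overlap, and the ratio of means was 19.9-fold lower on KD (-3.59 ± 0.41, adjusted p = 0.000617). In recovered reads this was 191, 219, 324 and 45 on ND against 23, 27, 0 and 4 on KD. Only 6 of 13432 genes were called in this comparison by limma, 5 of them lower (0.0372%), and 1197 had an unadjusted p under 0.05. Besides Cyp2c69 these, named after their values were seen, were Scd1, Atg16l2, Tbc1d8 and Gm11827, which fell, and Cyp7a1, which catalyzes the limiting step from cholesterol to bile acids and rose. On the deposited scale Cyp2c69 was also called (-3.01, adjusted p = 0.000133). It did not pass with a pseudocount of 0.1 (-4.88, adjusted p = 0.151) or with voom on recovered reads (-4.99, adjusted p = 0.0553).

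The other 8 tested members did not pass between the diets in nontumor liver, and 7 of them had negative values, from -0.15 (Cyp2c70) to -1.19 (Cyp2c68). Cyp2c37 (2.20-fold), Cyp2c50 (2.14-fold) and Cyp2c68 (2.09-fold) were lower on KD with groups that did not overlap, which with Cyp2c69 made 4 members, where 2.79% of tested genes did the same. The median over the 9 was -1.06, beside 0.0059 over all tested genes. The sum on KD was 1.92-fold lower by rescaled means, 1764 ± 351 against 3394 ± 848 TPM, and the groups overlapped. On the deposited scale the difference in the sum was 1.27-fold, the values of Cyp2c23 (0.32) and Cyp2c70 (0.80) were positive, and that of Cyp2c37 was -0.17. With the listed genes scaled to a common sum, the log2 difference of the sum was -0.79, beside -0.94 in rescaled TPM. The deposited scale without ND nontumor 4 gave -0.06 for Cyp2c70. These smaller differences thus depended on the scaling and, for Cyp2c70, on whether ND nontumor 4 was included.

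**Figure D3:**
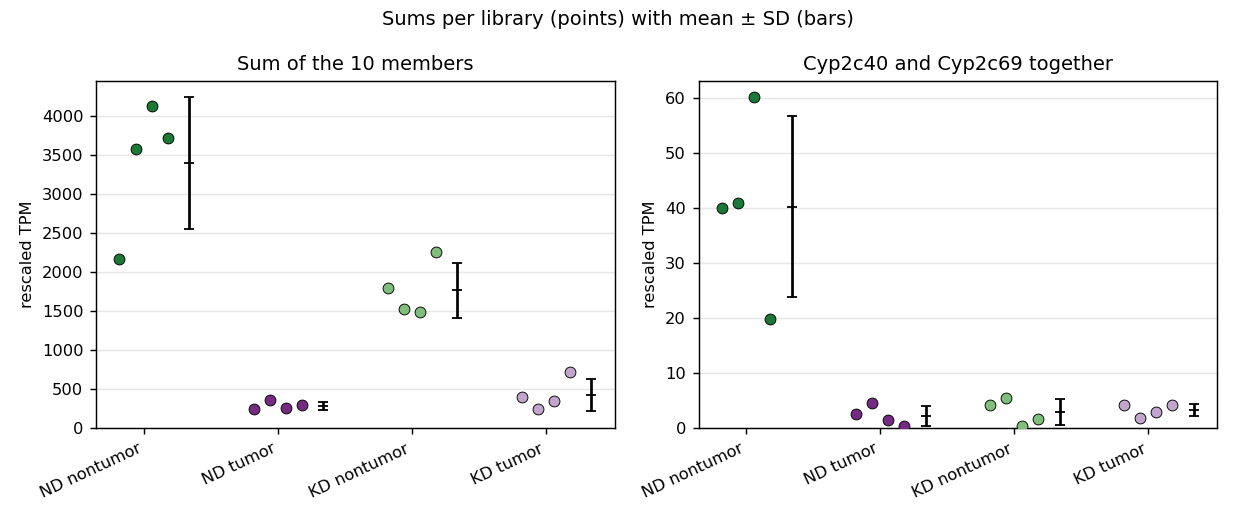
Left, the sum of the 10 members per library in rescaled TPM; right, Cyp2c40 and Cyp2c69 added together; points are libraries and bars show the mean ± SD of 4. The sum is lowest in both tumor groups (249 to 718 TPM), and the pair is above 19 TPM only in ND nontumor liver.

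The difference between the diet effects in tumor and in nontumor liver was tested directly. It passed for Cyp2c69 alone of the 9 members (3.51 ± 0.58, adjusted p = 0.0179), where 0.208% of all tested genes passed in this direction. Cyp2c69 was lower on KD in nontumor liver and near 0 in tumors of both diets (0.964 ± 0.836 TPM on ND and 0.743 ± 0.288 TPM on KD). Its call was lost without ND nontumor 2 (3.42, adjusted p = 0.0601), on the deposited scale (2.96, adjusted p = 0.0523), with a pseudocount of 0.1 (5.14, adjusted p = 0.0873) and with voom on recovered reads (5.65, adjusted p = 0.0862). For 7 members the value was positive and did not pass, from 1.25 ± 0.38 (Cyp2c23, adjusted p = 0.12) to 3.72 ± 0.96 (Cyp2c37, adjusted p = 0.0848), and for Cyp2c70 it was -0.03 ± 0.61. The median over the 9 was 2.39, beside 0.0045 over all tested genes.

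Because the members changed by such different factors, the make-up of the Cyp2c sum differed between tissues. In ND nontumor liver, Cyp2c37 held 31.0% ± 1.44 (SD) of the sum and Cyp2c54 26.9% ± 4.85, while Cyp2c70 held 5.11% ± 1.58. In ND tumors, Cyp2c70 held 61.0% ± 9.55 and Cyp2c68 26.5% ± 5.52, and Cyp2c37 was down to 1.86% ± 2.18. On KD, the share of Cyp2c70 was 10.3% ± 6.97 in nontumor liver and 39.0% ± 7.57 in tumor, and that of Cyp2c68 was 6.89% ± 3.78 and 36.3% ± 10.5. These shares do not depend on how a library is scaled. The share of Cyp2c70 was at least 32.1% in every tumor and at most 18.3% in every nontumor library. Thus the enzyme of muricholic acid synthesis made up most of the Cyp2c RNA of ND tumors, at an absolute level that did not pass any test. The share of Cyp2c23 varied less, between 8.28% ± 2.55 in ND tumor and 13.9% ± 0.713 in KD nontumor liver.

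**Figure D4:**
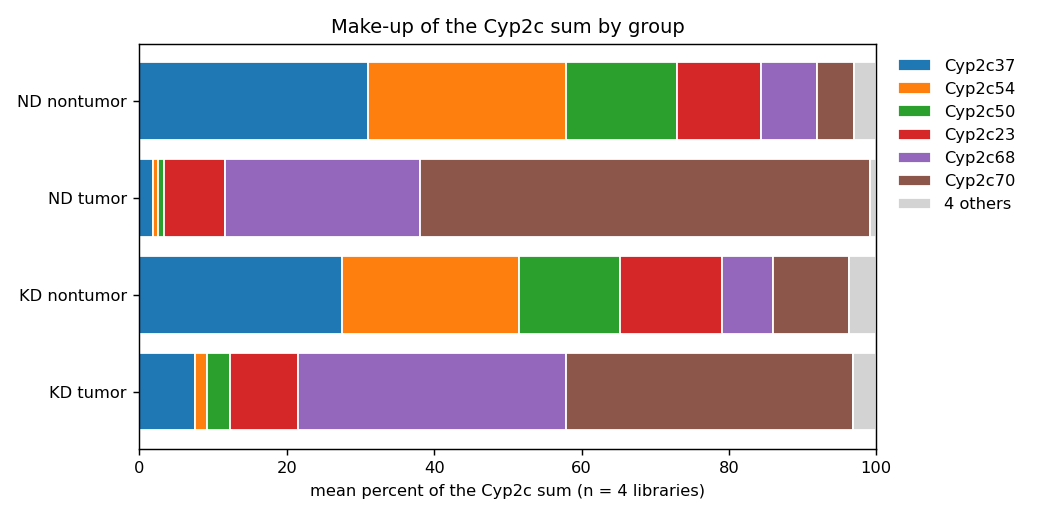
Mean percent of the Cyp2c sum held by each member in each group (4 libraries each); grey combines Cyp2c29, Cyp2c38, Cyp2c39 and Cyp2c69. Cyp2c70 and Cyp2c68 together take up most of the bar in both tumor groups, and Cyp2c37, Cyp2c54 and Cyp2c50 in both nontumor groups.

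Several members are close copies, so reads could be divided between them by the counting. In coding sequence, Cyp2c37 and Cyp2c50 are 96.1% identical, Cyp2c50 and Cyp2c54 95.2%, Cyp2c37 and Cyp2c54 95.1%, and Cyp2c38 and Cyp2c39 94.2%. Cyp2c70 is at most 68.7% identical to any gene of the family. Of all windows of 100 bases in each member's longest transcript, the share found unchanged in another Cyp2c transcript was 36.3% for Cyp2c69, 19.8% for Cyp2c68, 9.40% for Cyp2c50, 7.59% for Cyp2c54 and 4.70% for Cyp2c37. It was 0% for Cyp2c23, Cyp2c29, Cyp2c38, Cyp2c39 and Cyp2c70. For the members with shared windows, how the authors' counting divided such reads is not given in the sources used here. The start of the Cyp2c29 model overlaps the pseudogene Cyp2c53-ps on the same strand by 5581 bases.

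Cyp2c69 shares most with Cyp2c40, an arachidonic acid hydroxylase, at 97.9% coding identity. Cyp2c40 was 19.0, 12.4, 20.4 and 7.27 TPM in ND nontumor liver and 2.21, 3.10, 0.444 and 0.956 TPM in KD nontumor liver, and the groups did not overlap. Its diet difference in nontumor liver did not pass (-2.58 ± 0.46, adjusted p = 0.0548), whereas the difference between the diet effects did (3.43 ± 0.66, adjusted p = 0.0301). Added together, the pair was 39.96, 41.0, 60.1 and 19.9 TPM on ND and 4.30, 5.48, 0.444 and 1.61 TPM on KD, 13.6-fold lower, and did not overlap. Cyp2c67, which is 97.2% identical to Cyp2c68, fell in tumors on ND (-4.24 ± 0.42, adjusted p = 2.95e-06) and on KD (-2.03 ± 0.42, adjusted p = 0.00182), where Cyp2c68 did not pass. The sum over all 15 Cyp2c rows was 11.9-fold lower in ND tumor and 4.12-fold lower in KD tumor than in nontumor liver on the same diet.

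Genes around the Cyp2c enzymes were counted by lists. Among the 12 regulators, 5 fell and 1 rose in ND tumors and 6 fell in KD tumors. Nr1i3, which encodes the nuclear receptor CAR, fell the furthest on both diets (-2.57 ± 0.27 on ND and -3.47 ± 0.27 on KD), followed on KD by Foxa2 (-1.62 ± 0.17). Hnf4a, named because its motif was searched and after its values were seen, did not pass on either diet (-0.12 with adjusted p = 0.69 on ND, -0.08 on KD). The growth hormone axis, which sets sex-biased P450 expression, had 6 of 9 tested genes lower on ND and 7 on KD, led by Igf1 (-2.49 and -1.70). Of 14 targets of CAR and PXR, 5 fell on ND, and 6 fell and 2 rose on KD. Between the tumors of the 2 diets, Cebpa (0.78 ± 0.21) and Rxra (0.58 ± 0.19) were the regulators that were higher on KD.

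Genes of the partners of the reaction were counted next. Por, the oxidoreductase that supplies electrons to Cyp2c enzymes, fell by 2.01 ± 0.21 on the log2 scale on ND and by 1.71 ± 0.21 on KD, and of the 6 electron partners 3 fell on ND, and 1 fell and 1 rose (Cyb5r3, 1.23) on KD. Of 8 genes of heme synthesis 5 fell on each diet, led by Alas1, the first enzyme of that route (-2.77 ± 0.29 and -1.84 ± 0.29). Downstream of the epoxygenases, Ephx2, which encodes soluble epoxide hydrolase, fell on both diets (-2.05 ± 0.27 and -1.60 ± 0.27). In its list of 11 tested genes of arachidonic acid oxidation, 6 fell and 1 rose on ND, and 3 fell and 1 rose on KD. The list's epoxygenase Cyp2j5 fell on ND (-2.36 ± 0.38) and was higher in KD than in ND tumors (1.66 ± 0.38).

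Among other P450 genes of the Cyp2 and Cyp3 families, 13 of 25 tested fell and 4 rose in ND tumors, and 12 fell and 3 rose in KD tumors. Their median was -1.13 on ND, against -4.10 for the Cyp2c members. Cyp2a4 (6.63 ± 0.90) and Cyp2b9 (5.78 ± 0.73) rose the most, so the direction seen in Cyp2c was not general to these families. Of 21 tested pericentral and Wnt target genes, 18 fell on ND and 14 on KD, and 11 were higher in KD than in ND tumors. In that list Cyp2e1, the ethanol-oxidizing P450, went down in ND tumors (-4.82 ± 0.51) and was higher in KD than in ND tumors (3.17 ± 0.51). In bile acid synthesis, where Cyp2c70 acts, 12 of 15 tested genes fell on ND, and 9 fell and 1 rose on KD, led by Cyp8b1 (-5.78 and -4.62), whereas Cyp2c70 passed neither test.

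**Figure D5:**
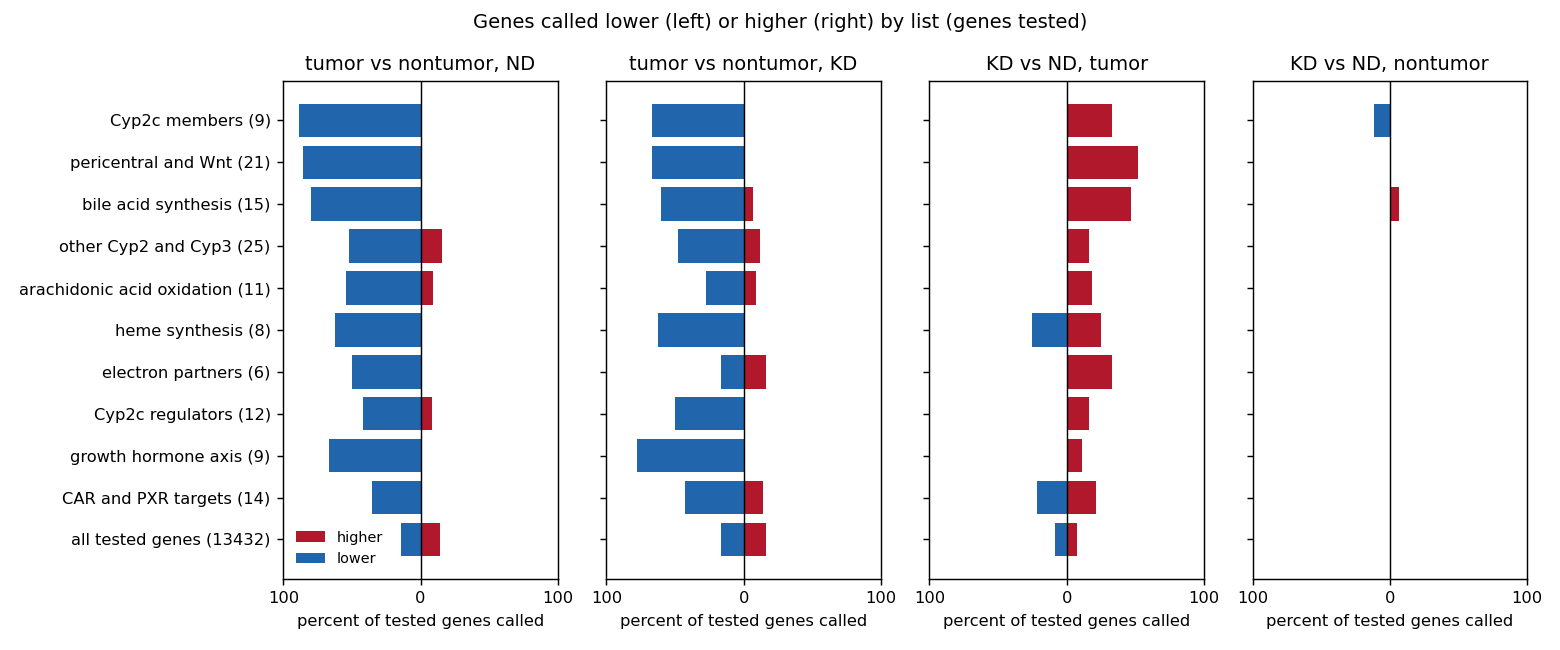
Percent of tested genes called lower (left of 0) or higher (right of 0) in 4 comparisons, for the Cyp2c members, 9 gene lists and all tested genes; the number tested is in parentheses. In ND tumors 8 of 9 Cyp2c members, 18 of 21 pericentral and Wnt genes and 12 of 15 bile acid genes are lower, beside 14.2% of all tested genes.

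Markers were compared for the cell types that the tissue could hold. The 12 hepatocyte markers summed to 68967 to 135118 TPM in ND nontumor, 86341 to 153241 in ND tumor, 40830 to 126730 in KD nontumor and 158964 to 220175 TPM in KD tumor. Alb, Apoa1 and Apoa2 made up most of that sum in the group means. Of the 12, 2 fell and 2 rose in ND tumors, and 1 fell and 3 rose in KD tumors. The list of 8 markers of Kupffer cells, the resident macrophages of liver, moved with the members: 6 fell in ND tumors and 4 in KD tumors. Its sum was 268 to 410 TPM in ND nontumor, 80.7 to 110 in ND tumor, 171 to 279 in KD nontumor and 80.5 to 190 TPM in KD tumor, and Marco, Timd4 and Vsig4 reached 0 in at least 1 ND tumor. All 5 tested red cell markers fell in ND tumors and 0 changed in KD tumors, with sums of 1206 to 6724 TPM in ND nontumor, 273 to 1396 in ND tumor, 576 to 2170 in KD nontumor and 479 to 3343 TPM in KD tumor. The 8 endothelial markers were divided, with 3 lower and 3 higher in ND tumors, and 1 lower and 1 higher in KD tumors. Among them the sinusoidal genes Clec4g (25.9 ± 9.45 to 2.40 ± 0.979 TPM) and Stab2 (22.3 ± 3.04 to 5.04 ± 1.37 TPM) fell in ND tumors and were higher in KD than in ND tumors (2.42 and 1.16 on the log2 scale). The same held for Oit3 (-1.47 and 1.36). Stab1 did not pass on ND (0.09, adjusted p = 0.758) and was lower in KD than in ND tumors (-0.86, adjusted p = 0.0111). Cd34 and Pecam1 rose in ND tumors (2.62 and 1.47) and were also lower in KD than in ND tumors (-1.87 and -1.74). Lyve1 passed neither test.

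Cholangiocyte markers summed to 149 to 231 TPM in ND nontumor, 560 to 1989 in ND tumor, 86.4 to 285 in KD nontumor and 781 to 2573 TPM in KD tumor, and of 5 tested, 2 rose and 1 fell on ND, and 1 rose and 1 fell on KD. Spp1 made up most of that sum, with means of 128 and 1168 TPM in ND nontumor and tumor and 129 and 1242 TPM on KD. Krt19 fell on ND (-1.96, adjusted p = 0.00804), and Epcam did not pass there (-0.71, adjusted p = 0.0841). Stellate cell markers summed to 79.4 to 159 TPM in ND nontumor, 102 to 204 in ND tumor, 45.0 to 93.7 in KD nontumor and 121 to 272 TPM in KD tumor, and of 8, 2 rose and 2 fell on ND, and 3 rose and 1 fell on KD. T and NK cell markers summed to 6.19 to 9.58 TPM in ND nontumor, 9.69 to 33.4 in ND tumor, 3.77 to 9.65 in KD nontumor and 9.90 to 22.9 TPM in KD tumor, and of 5 tested, 2 rose on ND and 1 on KD. Gut markers, at 235 to 388 TPM in ND nontumor and 159 to 228 TPM in ND tumor, were lower by their sum on ND, and at 239 to 373 TPM in KD nontumor and 353 to 495 TPM in KD tumor they overlapped on KD. Lgals4 and Fabp2 made up most of that sum in the group means. Lgals4 fell on ND and KD (-1.58 and -1.70), whereas Krt20 rose on both (2.33 and 2.22). Fabp2 rose on KD (1.52, adjusted p = 0.0266) and did not pass on ND (0.70, adjusted p = 0.313). The part of all these cells in the Cyp2c values was not tested.

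The sum of 6 liver tumor markers was 468 TPM in KD nontumor 2 and 6.79 to 49.6 TPM in the other 3 KD nontumor libraries. It was 98.9 TPM in ND nontumor 4 and 6.04 to 9.30 TPM in the other 3 ND nontumor libraries, beside 101 to 450 TPM in ND tumors. In KD tumor 2 it was 367 TPM, and in the other 3 KD tumors 1667 to 2522 TPM. H19 alone made up most of both high nontumor sums, reaching 453.5 TPM in KD nontumor and 89.9 TPM in ND nontumor liver. Afp, Gpc3 and Mki67 were at most 3.41, 4.30 and 5.87 TPM in KD nontumor liver, beside means of 140, 27.2 and 9.74 TPM in KD tumor. The KD tumors ranged from 5.45 to 416 TPM for Afp, 9.84 to 42.7 TPM for Gpc3 and 5.70 to 16.9 TPM for Mki67. Mki67 thus overlapped between the tissues. Without KD nontumor 2, Cyp2c69 was still lower on KD in nontumor liver (-3.81, adjusted p = 0.000942) and 6 members still fell in KD tumors. Without ND nontumor 4, 8 members fell in ND tumors and Cyp2c69 was lower on KD in nontumor liver (-3.97, adjusted p = 0.00127). Without KD tumor 2, 5 members fell in KD tumors and 4 were higher in KD than in ND tumors, Cyp2c29 among them (1.90, adjusted p = 0.0376).

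The genes with a pattern most like the Cyp2c sum were found among 7823 tested genes with a mean of at least 5 TPM. The members and genes with provisional symbols, such as those with Gm numbers or Rik, were left out. Likeness was the root mean square difference over the 16 libraries of log2(rescaled TPM + 1), each gene centered on its own mean. The 6 closest were Pck1 (0.44), Ces2a (0.45), Cyp4f15 (0.46), Clec4f (0.46), Tbx3 (0.47) and Ces1g (0.50). They include a gluconeogenic enzyme, carboxylesterases, a Kupffer cell lectin and a Wnt-dependent transcription factor. Pck1 had means of 4198, 391, 3491 and 668 TPM in ND nontumor, ND tumor, KD nontumor and KD tumor. Among the members themselves, Cyp2c37 and Cyp2c50 were the most alike (0.62) and Cyp2c54 and Cyp2c70 the least (3.73).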

How the data were processed

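RNA-seq of 16 mouse liver libraries (4 groups of 4) was used. Per the submitters' processing notes, the authors used FastQC, HISAT2, SAMtools and featureCounts with the mm10 build; versions and the step to TPM are not given in the sources used here. The deposited table holds TPM for 20601 genes, and its nontumor columns have a P in place of the N of the titles. The members and lists were chosen with earlier results of these data known.

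TPM values were divided by library factors from the median of ratios, taken over the 12119 genes with no 0. Genes with a deposited TPM of at least 1 in at least 4 libraries (13432) were tested with limma 3.58.1 in R 4.3.3, with a variance trend, equal weights and all libraries in 1 fit, on log2(rescaled TPM + 1), at a Benjamini-Hochberg adjusted p of 0.05. The 5 contrasts compared tumor with nontumor tissue (ND, then KD), the diets (tumor, then nontumor), and the diet effects of both tissues. The family sum and the shares had no test. The fit was tested on simulated data with a fixed spread, in which 100 genes each were raised 2-fold or 4-fold in KD tumors. Between the tumors it called 11% of the 2-fold and 81% of the 4-fold changes, and 6 unchanged genes. A true 2-fold change can thus fail to pass. The depth came from whole reads recovered from the steps of the deposited TPM values. Of the values of 20601 genes, 100% were within 0.001 reads of a whole number. For each gene the smallest whole numbers within this tolerance were taken. For genes above 0 in few libraries a match was thus largely fixed in advance, and their reads can be too low. Voom on these reads, an alternative chosen after seeing the data, called 3728, 4310, 2498, 6 and 81 genes in the 5 contrasts, in that order. No 2 libraries held identical values. At these depths, members under 1 TPM rest on a few reads.

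All 10 members are named. From each list some genes are named, and these are not always the ones with the largest change. In ND tumors, for example, Clec4f (-4.09) of the Kupffer list and Cyp1a2 (-5.79) of the pericentral list changed more than the genes named there. The 6 genes most like the family sum and summed marker levels follow fixed rules. Positions and transcripts are from GENCODE M21 and promoters from RefSeq (GRCm38.p6). Coding sequences were taken as the longest open reading frame, and identities come from global alignments with Biopython 1.88.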

Additional observations from a re-analysis of the deposited data

Results flagged for a closer look

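The diet effect on Cyp2c69 differed between the tissues: the log2 change on KD in tumor minus that in nontumor liver was 3.51 ± 0.58 (adjusted p = 0.0179 in limma). In nontumor liver the level was lower on KD in 4 of 4 libraries than in any ND library, and in tumors both diets were near 0.

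KD tumor 4 stood apart from the other 3 KD tumors by Dixon's test on rescaled TPM for 5 members. Cyp2c50 was 50.8 TPM there and 4.76 to 7.54 TPM in the others, Cyp2c38 was 18.2 TPM against 3.31 to 4.76 TPM, and Cyp2c37 was 116 TPM against 8.30 to 24.4 TPM. Cyp2c54 was 18.9 TPM against 2.36 to 5.05 TPM, and Cyp2c29 was 22.9 TPM against 1.15 to 4.73 TPM. Cyp2c23 was 42.4 TPM in ND tumor 2 and 17.4 to 20.8 TPM in the other ND tumors. On each scale 43 groups were checked, chance alone flags about 1 in 20 of them, and on log2(rescaled TPM + 1) 0 libraries stood apart.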

How the results depend on the processing

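The 19 member results that passed the test made 474 pairs of a result and an alternative fit. All pairs kept the direction, and 452 kept the call. Many of these fits leave out 1 library, often from a group outside the comparison, where little can change. The pairs are thus not independent. The falls of Cyp2c54, Cyp2c50, Cyp2c37, Cyp2c38 and Cyp2c23 in tumors of both diets, and of Cyp2c29 and Cyp2c69 on ND, kept their calls under every alternative. The library factors, pseudocount, filter, weights, fit to only the groups compared, block and each library left out were planned, and voom on recovered reads, deposited TPM without ND nontumor 4 and the sum over all 15 Cyp2c rows were chosen after seeing the data. At this depth, values under 1 TPM rest on few reads, and the causes of the changes below were not tested.

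On deposited TPM, 1418 genes instead of 3855 were called for ND tumor against nontumor (77.2% of them higher instead of 50.5%), 1111 instead of 4361 on KD (34.8% instead of 50.1%), 113 instead of 2109 between the tumors (34.5% instead of 45.9%), 65 instead of 6 between nontumor livers (92.3% instead of 16.7%), and 14 instead of 82 for the difference of the diet effects (14.3% instead of 34.1%). Members called then numbered 1 instead of 3 between the tumors and 0 instead of 1 for the difference. The sum in nontumor liver moved from -0.94 to -0.35 on the log2 scale, Cyp2c23 there reversed to 0.32 and Cyp2c70 to 0.80, and Cyp2c70 on KD reversed to -0.28. Without ND nontumor 4 on that scale, the difference of the diet effects called 129 genes and 2 members, and Cyp2c70 reversed to -0.12 on ND and -0.28 on KD.

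With the listed genes scaled to a common sum, the share called higher was 70.4% on ND, 29.7% on KD, 9.62% between the tumors, 46.2% between nontumor livers (13 genes) and 6.16% for the difference of the diet effects (536 genes, 3 members), and Cyp2c70 reversed to -0.28 on KD. A pseudocount of 0.1 left 0 members called in the nontumor comparison and 0 for the difference, and reversed Cyp2c69 to 0.0069 in KD tumor against nontumor and to 0.26 between the tumors. Voom left 0 members called in the nontumor comparison and reversed Cyp2c69 to 0.65 between the tumors. Sample weights called 433 genes and 2 members in the nontumor comparison and 386 genes and 5 members for the difference, and reversed Cyp2c68 to -0.12 on KD and Cyp2c70 to 0.64 for the difference. No filter gave 10 genes in the nontumor comparison and 32 for the difference, and the fit to only the groups compared gave 3 in the nontumor comparison.

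The labels do not tie a replicate number to a mouse. Deviations of same-numbered libraries correlated at -0.29 to 0.16, and at -0.11 to 0.16 between tumor and nontumor tissue on the same diet. Differently numbered libraries were not compared, so these values cannot tell whether equal numbers share a mouse. The replicate block called 8, 6, 4 and 1 members in the first 4 comparisons and 1 for the difference, and 32 genes instead of 82 for the difference. In the comparisons between diets it paired equal numbers across the diets, which came from different mice.

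Leaving out each library in turn gave 1 to 4 members and 1046 to 2517 genes between the tumors (1046, 1112 and 1149 genes without KD tumor 3, KD tumor 4 and ND tumor 1), 5 to 12 genes between nontumor livers (12, 10 and 11 without KD nontumor 4, ND nontumor 4 and ND tumor 3), and 0 to 2 members and 9 to 190 genes for the difference of the diet effects (9 without ND nontumor 2 and 190 without ND nontumor 4). Values that did not pass changed sign for Cyp2c70 on ND (-0.022 to 0.22), on KD (-0.31 to 0.41), between the tumors (-0.44 to 0.057), between nontumor livers (-0.51 to 0.21) and for the difference (-0.39 to 0.33). They also did so for Cyp2c69 on KD (-0.58 to 0.00020) and between the tumors (-0.36 to 0.15), and for Cyp2c38 between nontumor livers (-0.11 to 0.45).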

Other observations

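Within KD nontumor liver, replicates 1 and 2 were above replicates 3 and 4 for 4 of the 10 members: Cyp2c29 (24.9 and 18.8 against 15.2 and 13.0 TPM), Cyp2c38 (73.4 and 48.6 against 22.1 and 35.2 TPM), Cyp2c68 (173 and 163 against 49.7 and 88.9 TPM) and Cyp2c69 (2.09 and 2.38 against 0 and 0.651 TPM). The same held for Cyp2c40 (2.21 and 3.10 against 0.444 and 0.956 TPM) and Cyp2c67 (207 and 156 against 53.8 and 73.9 TPM). For Cyp2c54 (307 and 275 against 454 and 686 TPM) and Cyp2c70 (69.3 and 78.3 against 271 and 317 TPM) they were below, and for Cyp2c23, Cyp2c37, Cyp2c39 and Cyp2c50 the replicates did not separate this way. The share of all tested genes that split this way is not given, so the count of 4 has no background to compare with. The summed hepatocyte markers were 119934 and 126730 TPM in replicates 1 and 2 and 40830 and 76463 TPM in replicates 3 and 4. The same libraries also split by recovered depth, which was higher in replicates 1 and 2. The listed genes made up 86.6% and 88.4% of their TPM total, against 66.8% and 73.1% in replicates 3 and 4. These libraries were set side by side after their values were seen, and the difference was not tested.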
